A study of Homo sapiens with 12 samples.

Results

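Midkine (MDK) and pleiotrophin (PTN) are the 2 members of a small family of secreted, heparin-binding growth factors. Their transcripts were followed here together with those of 6 receptors: PTPRZ1, ALK, LRP1 and the syndecans SDC1, SDC3 and SDC4. The genes were found by symbol in a table of 57704 genes, and 8 of 8 were present. MDK was chosen by its measured fold change after SUPT4H1 knockdown, which was large and positive, so its difference between the groups is given as a description, without a test. The other 7 were taken for their place in the pathway. The cells were HEK293, an established human embryonic kidney line, with a stably integrated DARP-EGFP reporter that holds an endogenous intron. They received pooled siRNAs against SUPT4H1 or scrambled siRNAs, at 100 nM in both groups, and were lysed after 72 hours. Each group had 6 libraries, 1 per transfection, and all transfections came from 1 culture, so the p-values refer to spread among transfections only. ERCC RNA standards were added to each lysate, mix 1 with scrambled siRNA and mix 2 with SUPT4H1 siRNA.

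Both growth factors bind the sulfated sugar chains of cell-surface proteoglycans and through them reach signalling receptors. PTPRZ1 is a receptor tyrosine phosphatase whose chondroitin sulfate chains capture both ligands, and ligand binding is known to restrain its phosphatase activity. ALK is a receptor tyrosine kinase, LRP1 is a large endocytic receptor of the LDL receptor family that takes up midkine, and the syndecans are transmembrane carriers of heparan sulfate. Midkine was first found as a retinoic acid-induced gene, is abundant in the embryonic kidney and brain, and is widely raised in tumours.

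Libraries were made with a kit that reads the 3′ ends of polyadenylated RNA, so a transcript gives about 1 tag whatever its length, and levels were not divided by length. Libraries of the scrambled group held 7337033 to 20269171 endogenous counts, and those of the SUPT4H1 group 6591194 to 11366971. Levels are in CPM, endogenous counts scaled by TMM to a common library size, which sets the bulk of genes equal between libraries. SUPT4H1, the targeted gene, was between 175 and 199 CPM with scrambled siRNA and between 17.9 and 22.8 CPM with its own siRNAs (log2 fold change −3.14, SE 0.08, edgeR adjusted p = 2.57e-17). On the second principal component SUPT4H1 siRNA replicate 6 stood at 38.3, while the other 5 libraries of its group lay between −19.6 and −4.05. Of 6 markers of HEK293 cells fixed for this check, NEFL, VIM, KRT8 and KRT18 were at 26.5 CPM or more in every library, and NEFM and PAX2 were at 2.16 CPM or less. Their summed level was 1633 to 2173 CPM with scrambled siRNA and 1336 to 1460 CPM with SUPT4H1 siRNA, and 1 of the 6 rose and 2 fell. The summed level of 5 endothelial markers was at most 0.266 CPM, with CDH5 at 0. That of 5 leukocyte markers was 1.49 to 2.29 CPM with scrambled siRNA and 1.39 to 4.14 CPM with SUPT4H1 siRNA, with PTPRC at 0. Of these CD68 alone was tested (log2 0.76), and its call was lost in 6 of 12 fits that left out 1 library, namely scrambled replicates 2, 4 and 6 and SUPT4H1 replicates 1, 3 and 5 (adjusted p up to 0.11), without the low-count filter (0.066) and with RNA integrity as a covariate (0.065). The summed level of 8 fibroblast markers was 9.10 to 14.9 and 9.60 to 14.7 CPM, where 2 of 3 tested markers rose and 0 fell. Of these calls COL3A1 was lost without SUPT4H1 replicate 2 (adjusted p = 0.064) and PDGFRA without scrambled replicate 2 or 6 or SUPT4H1 replicate 3 (up to 0.065). The sum of 8 glial markers was 58.9 to 79.0 and 64.5 to 81.2 CPM, with SOX10 at 0, and 1 of 3 tested markers rose and 1 fell. Over all 13811 genes tested, 40.2% were called at an edgeR adjusted p under 0.05, 20.0% as higher and 20.2% as lower. The part of these markers in the results below was not tested.

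MDK (ENSG00000110492) lies on chromosome 11 from 46380756 to 46383837 on the plus strand of GRCh38, in GENCODE release 29, and overlaps no other annotated gene. Its longest annotated 3′ untranslated region is 343 bases. An earlier scan of these same fold changes had singled out the words AGCCTT and ACATCA in 3′ untranslated regions, so matches to them are a description and no independent evidence. Searched on the transcript strand, the longest annotated 3′ untranslated regions of MDK and PTN held 1 ACATCA each, that of SDC1 held 1 AGCCTT and that of SDC3 held 2. Those of PTPRZ1, ALK, LRP1 and SDC4 held neither word. The 5 sites are shown to set their bases and their distances from the transcript end side by side, each as 30 bases with the word in capitals.
MDK, chr11:46383760-46383789, plus strand: ttactaagaaacACATCAaataaactgact
PTN, chr7:137227974-137228003, minus strand: aacataaaaaggACATCAgcaaacaggatc
SDC1, chr2:20201809-20201838, minus strand: atgctgggactcAGCCTTcagacagagagg
SDC3, chr1:30871058-30871087, minus strand: ccaggtggacccAGCCTTagaagagtgggc
SDC3, chr1:30869574-30869603, minus strand: ctctcctgttccAGCCTTgtgaaggaactg
In MDK the word is followed directly by AATAAA, the sequence of the canonical polyadenylation signal, and ends 60 bases before the annotated end of the transcript. The region holds 2 AATAAA, and the last starts 38 bases before that end. Which of them is used was not tested. In PTN the word ends 622 bases before that end, in SDC1 1024 bases, and in SDC3 1603 and 119 bases. Among 11995 tested genes with an annotated 3′ untranslated region, 33.5% held ACATCA and 43.0% held AGCCTT. Among the 1651 of them whose region had between 200 and 500 bases, as has that of MDK, the shares were 7.75% and 12.3%.

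MDK was about 4 times as abundant in cells with SUPT4H1 siRNA as in cells with scrambled siRNA, the largest difference among the 8 genes. Because MDK was chosen by this difference, its rank is no separate result. With scrambled siRNA its level had a lowest value of 9.18, a median of 11.97 and a highest value of 16.9 CPM. With SUPT4H1 siRNA these were 36.7, 47.5 and 69.4 CPM. The lowest SUPT4H1 library, replicate 4, was thus more than double the highest scrambled library, replicate 1, and the groups did not overlap. The means were 12.5 ± 2.90 and 50.9 ± 12.1 CPM (SD, n = 6 each), a ratio of 4.08 and a log2 fold change of 2.02 (SE 0.17). The libraries varied to a like degree within both groups, with coefficients of variation of 23.3% and 23.8%. They held 74 to 294 MDK reads with scrambled siRNA and 273 to 651 with SUPT4H1 siRNA. Of 13811 genes tested, 12 had a larger relative log2 fold change, as did 6 of the 10908 with a mean of at least 5 CPM in either group.

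PTN, the other ligand, is a gene of brain and bone development and was expressed at a low level in these cells. Its level with scrambled siRNA ran from 1.36 over a median of 1.63 to 2.60 CPM, and with SUPT4H1 siRNA from 1.61 over 2.59 to 4.09 CPM. The groups overlapped, since scrambled replicate 2 lay above 3 of the SUPT4H1 libraries. PTN (ENSG00000105894, chromosome 7 from 137227341 to 137343865) rose by 0.64 on the log2 scale (SE 0.24, edgeR adjusted p = 0.043). The call rested on 11 to 53 reads per library and was lost without any 1 of 8 libraries, namely scrambled replicates 1, 3, 4, 5 and 6 and SUPT4H1 replicates 1, 5 and 6 (adjusted p up to 0.11).

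**Figure D1:**
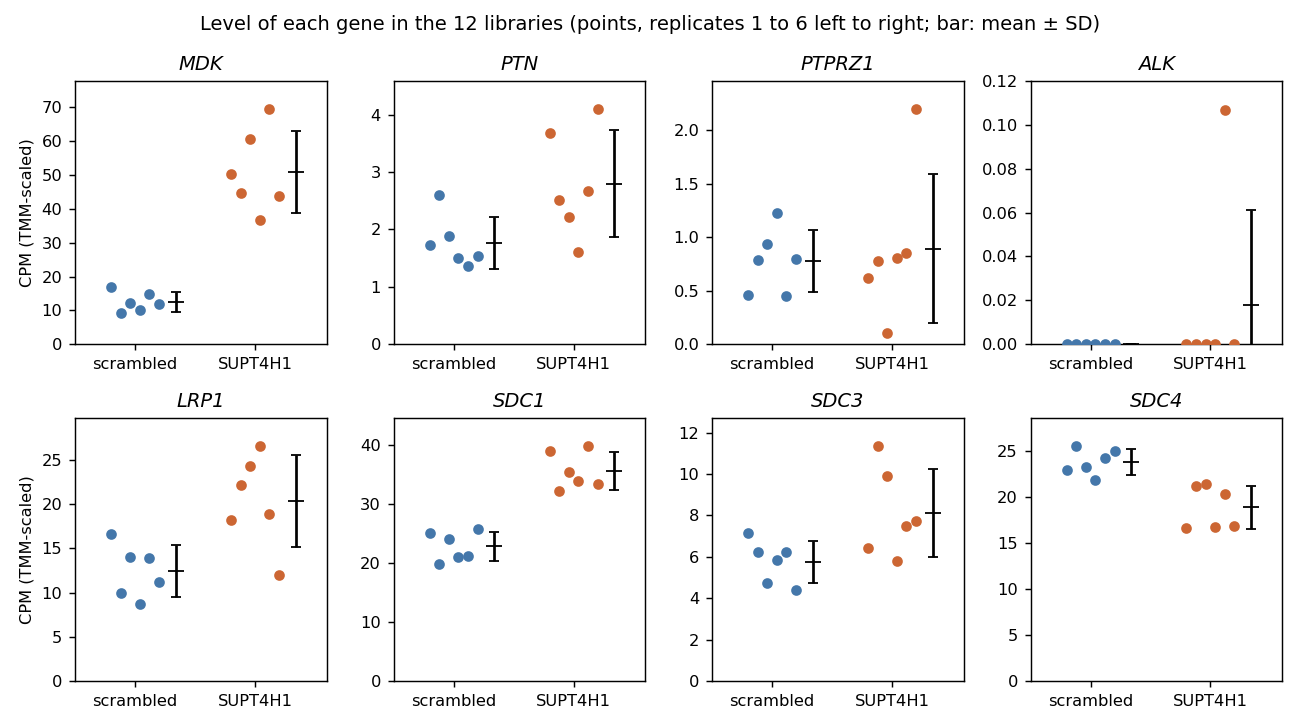
Level of each of the 8 genes in CPM (linear axes that start at 0, a separate scale per gene), with 1 point per library for scrambled siRNA (left, blue) and SUPT4H1 siRNA (right, orange) and the mean ± SD of 6 libraries as a black bar. MDK and SDC1 lie higher in every SUPT4H1 library and SDC4 lower, while the other genes overlap between the groups.

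MDK made up most of the ligand transcripts in both groups. For each PTN read there were 3.53 to 10.8 MDK reads with scrambled siRNA and 10.7 to 27.3 with SUPT4H1 siRNA. As a share of the reads of both ligands, MDK took 87.1% ± 4.89 and 94.6% ± 1.99 (SD, n = 6 each). The shares met at the edge, at 91.5% in scrambled replicate 5 and 91.4% in SUPT4H1 replicate 6.

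The signalling receptors PTPRZ1 and ALK were at or near the limit of detection, and neither passed the filter on low counts. PTPRZ1 (ENSG00000106278, chromosome 7 from 121873089 to 122062036) had 1 to 16 reads per library. It ran from 0.454 over a median of 0.792 to 1.22 CPM with scrambled siRNA and from 0.101 over 0.793 to 2.19 CPM with SUPT4H1 siRNA. The medians were nearly equal, and SUPT4H1 replicate 6 held the highest value and replicate 3 the lowest. Pooled over a group, PTPRZ1 stood at 0.734 CPM (exact 95% Poisson interval 0.570 to 0.931) and at 0.814 CPM (0.596 to 1.09), where the intervals cover counting error only. Without the filter its log2 fold change was 0.17 (SE 0.42, edgeR adjusted p = 0.81 over 28353 genes), which was within the spread between libraries. ALK (ENSG00000171094, chromosome 2 from 29192774 to 29921566) had 1 read in all, in SUPT4H1 replicate 5, and 0 in the other 11 libraries. A count of 0 in the scrambled group allows up to 0.0324 CPM, taken as 3 counts over its 6 libraries, so no difference in ALK was detectable at this depth. The other members of the ALK system were similarly scarce, with 39 reads of the related receptor LTK, 32 of the ALK ligand ALKAL1 and 6 of ALKAL2 over the 12 libraries, and none was tested.

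LRP1, which binds midkine among many other ligands and returns it to endosomes, was higher in 5 of 6 SUPT4H1 libraries than in any scrambled library. It ran from 8.69 over a median of 12.6 to 16.6 CPM with scrambled siRNA and from 11.99 over 20.5 to 26.6 CPM with SUPT4H1 siRNA. SUPT4H1 replicate 6, at 11.99 CPM, fell inside the scrambled range, and the next lowest library of its group was at 18.2 CPM. LRP1 (ENSG00000123384, chromosome 12 from 57128493 to 57213351, plus strand) rose by 0.70 on the log2 scale (SE 0.17, edgeR adjusted p = 0.0032), and by 0.81 without SUPT4H1 replicate 6. Its annotated span shares 3647 bases with STAT6 on the opposite strand, which rose by 0.92 (adjusted p = 2.70e-05). Whether the counting used strand is not known here, so any reads of LRP1 and STAT6 inside these shared bases cannot be told apart. The libraries read 3′ ends, and whether any of their reads fell inside the shared bases was not counted.

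The syndecans changed in different directions. SDC1 (ENSG00000115884, chromosome 2 from 20200797 to 20225433), the syndecan typical of epithelia and plasma cells, ran from 19.9 over a median of 22.6 to 25.8 CPM with scrambled siRNA. With SUPT4H1 siRNA it ran from 32.2 over 34.6 to 39.9 CPM, above every scrambled library. It rose by 0.64 on the log2 scale (SE 0.09, edgeR adjusted p = 1.89e-05). SDC3 (ENSG00000162512, chromosome 1 from 30869467 to 30908761), a syndecan of the nervous system that serves as a pleiotrophin receptor, ran from 4.39 over 6.04 to 7.13 CPM and from 5.78 over 7.61 to 11.4 CPM. These groups overlapped, with SUPT4H1 replicates 1 and 4 inside the scrambled range. The rise of SDC3 by 0.50 (SE 0.17, edgeR adjusted p = 0.026) was lost without scrambled replicate 3 or 6 or SUPT4H1 replicate 2 or 3 (adjusted p up to 0.084). SDC4 (ENSG00000124145, chromosome 20 from 45325288 to 45348424), the syndecan of focal adhesions, ran from 21.9 over 23.8 to 25.6 CPM with scrambled siRNA and from 16.7 over 18.6 to 21.4 CPM with SUPT4H1 siRNA. All of its SUPT4H1 libraries lay below all of its scrambled libraries, and it fell by 0.33 on the log2 scale (SE 0.10, edgeR adjusted p = 0.010).

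SDC2, the remaining syndecan, belongs to the list of further binding partners and was the most abundant of the 4 in every library. It ran from 83.0 to 98.3 CPM with scrambled siRNA and from 45.4 to 66.7 CPM with SUPT4H1 siRNA, without overlap. SDC2 fell by 0.72 on the log2 scale (SE 0.09, edgeR adjusted p = 1.52e-06). The make-up of the syndecan transcripts differed accordingly. The mean share of SDC2 was 64.0% ± 1.39 of the syndecan reads after scrambled siRNA but 47.3% ± 2.55 after knockdown (SD, n = 6). The share of SDC1 was 15.7% ± 1.07 and 30.1% ± 3.04, and that of SDC3 was 3.97% ± 0.73 and 6.77% ± 1.43. The share of SDC4 was 16.4% ± 1.42 and 15.9% ± 1.41, a difference smaller than the spread within either group. The 4 genes together summed to 146 ± 6.64 and 119 ± 11.3 CPM, between 135 and 154 CPM with scrambled siRNA and between 102 and 131 CPM with SUPT4H1 siRNA.

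**Figure D2:**
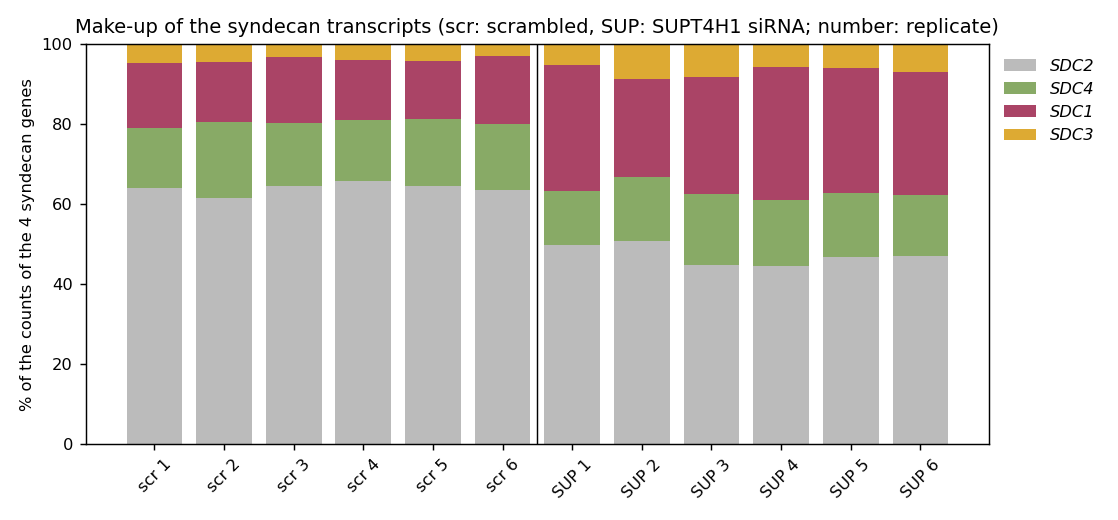
Share of each of the 4 syndecan genes in their summed reads, in percent (y axis from 0 to 100), with 1 stacked bar per library, scrambled siRNA replicates 1 to 6 left of the line and SUPT4H1 siRNA replicates 1 to 6 right of it. SDC2 takes 61.6% to 65.8% of the reads in the scrambled libraries and 44.6% to 50.7% in the SUPT4H1 libraries, and SDC1 takes 14.6% to 17.1% and 24.5% to 33.2%.

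The order of the 8 genes changed between the groups. With scrambled siRNA the highest were SDC4 and SDC1, at 23.8 ± 1.38 and 22.9 ± 2.42 CPM, whose ranges overlapped. MDK at 12.5 ± 2.90 and LRP1 at 12.4 ± 2.96 CPM came next and did not differ beyond their spread. SDC3 at 5.76 ± 1.02, PTN at 1.77 ± 0.45 and PTPRZ1 at 0.777 ± 0.293 CPM followed, each with a range below that of the gene before it (SD, n = 6). With SUPT4H1 siRNA MDK came first, at 50.9 ± 12.1 CPM, and SDC1 next at 35.6 ± 3.16 CPM, with MDK of replicate 4 inside the range of SDC1. LRP1 at 20.4 ± 5.199 and SDC4 at 18.9 ± 2.35 CPM overlapped, and SDC3 at 8.11 ± 2.12, PTN at 2.80 ± 0.93 and PTPRZ1 at 0.891 ± 0.695 CPM were again the lowest above ALK, with the ranges of the last 2 overlapping.

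Of the 8 genes, 6 passed the filter on low counts. Besides MDK, these were PTN, LRP1, SDC1 and SDC3, which rose, and SDC4, which fell. Over all 13811 genes tested, 40.2% were called at an adjusted p under 0.05, 20.0% as higher and 20.2% as lower with SUPT4H1 siRNA. CPM of the groups did not overlap for SDC1 and SDC4, and for 20.4% of all genes tested (10.2% higher and 10.2% lower with SUPT4H1 siRNA). They did not overlap for MDK either, but MDK was chosen by its fold change and is left out of this comparison. PTPRZ1 and ALK entered neither count, and the median relative log2 fold change of all genes tested was 0.00.

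CPM compare each gene with the other genes of its library. To set levels against the RNA that was added to the lysates, each library was scaled by its reads of the 23 subgroup B standards, whose nominal amount both ERCC mixes share. On this scale the median log2 fold change of all genes tested was −0.82, and 59.0% of them fell and 0.311% rose (59.3% in all, or 8195 genes). With subgroup C standards 2295 genes were called, of which 2226 fell, and leaving out 1 library gave 5697 (without scrambled replicate 4) to 12355 (without SUPT4H1 replicate 5). In these bulk lysates fewer cells and less RNA per cell cannot be told apart, and since mix and group coincide, neither can a difference in how the mixes were diluted. MDK remained higher in all SUPT4H1 libraries. In percent of the scrambled mean, it ran from 73.6 over a median of 97.2 to 135 with scrambled siRNA and from 148 over 174 to 619 with SUPT4H1 siRNA. On the log2 scale the spike-in-scaled difference was 1.31 (SE 0.33), and 0.82 (SE 0.25) without SUPT4H1 replicate 5, the library at 619%. That library had 9.27 as its log2 ratio of endogenous to subgroup B reads, within the scrambled range of 8.78 to 9.74, while the others of its group were between 7.62 and 8.38.

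The other genes took different positions on the spike-in scale. PTN at −0.17 (SE 0.39), LRP1 at −0.08 (SE 0.33), SDC1 at −0.13 (SE 0.32) and SDC3 at −0.35 (SE 0.34) did not pass the test (edgeR adjusted p between 0.36 and 0.82). These estimates lay within about their SE of 0, and with subgroup C standards in place of B those of PTN, LRP1 and SDC1 were 0.12, 0.22 and 0.18, so no direction is given for them on this scale. All of them lay above the median of all genes. SDC4 fell by 1.13 on the log2 scale (SE 0.33, edgeR adjusted p = 0.0030), to 45.8% of the scrambled level, a call that was lost with subgroup C standards (−0.81, adjusted p = 0.072). Its libraries ran from 73.1% over 94.3% to 138% of the scrambled mean with scrambled siRNA and from 29.6% over 35.1% to 93.9% with SUPT4H1 siRNA, where only replicate 5 reached the scrambled range. SDC2 fell by 1.52 (adjusted p = 7.27e-05).

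**Figure D3:**
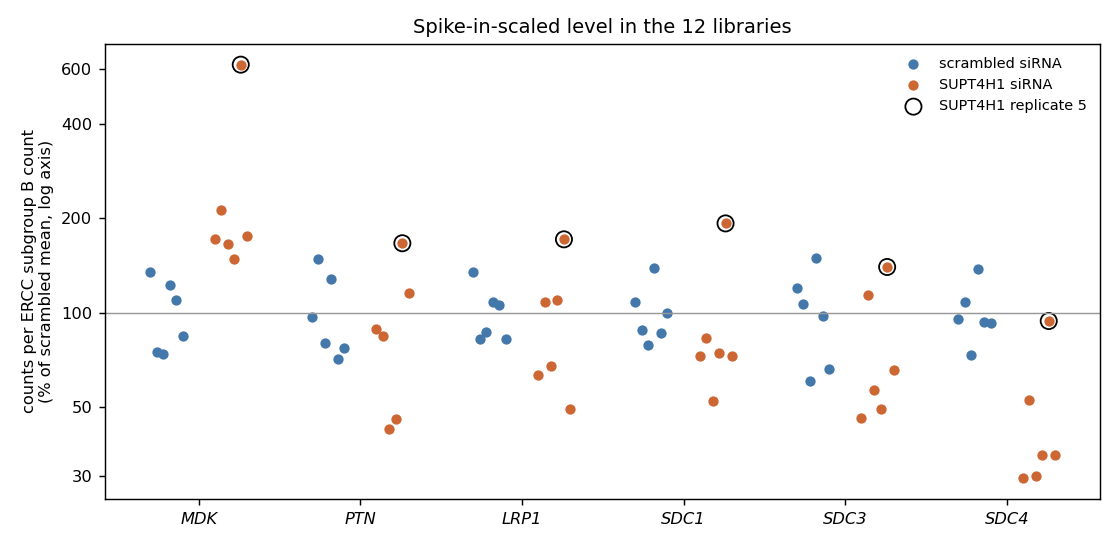
Reads of the 6 tested genes per read of ERCC subgroup B, in percent of the mean of the scrambled libraries (log axis), with 1 point per library for scrambled siRNA (blue) and SUPT4H1 siRNA (orange), and SUPT4H1 replicate 5 circled. Replicate 5 is the highest SUPT4H1 library for every gene, at 619% for MDK, and the other SUPT4H1 libraries of MDK lie between 148% and 213%.

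**Figure D4:**
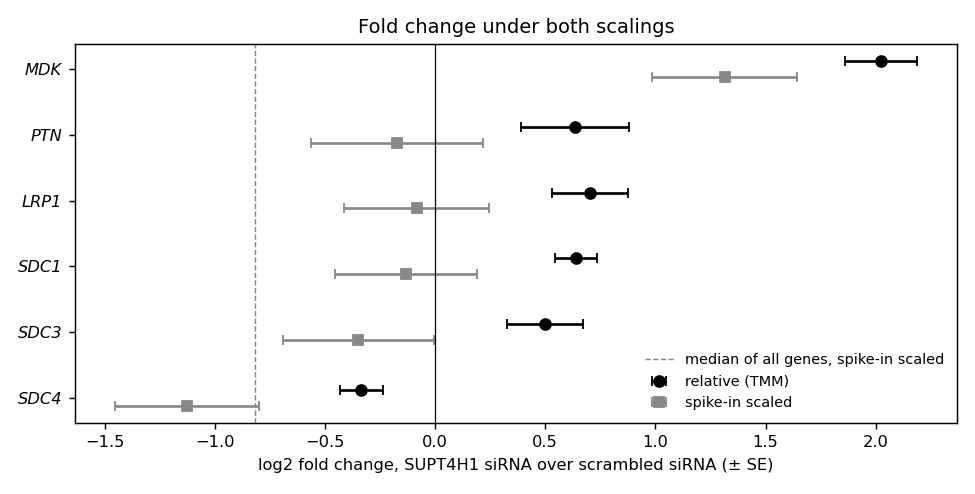
Log2 fold change of SUPT4H1 over scrambled siRNA for the 6 tested genes with its standard error, relative to all genes (black circles) and spike-in-scaled (grey squares). The dashed line marks the spike-in-scaled median of all genes, −0.82, and SDC4 alone among the 6 lies below it.

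Other proteins that bind midkine or pleiotrophin were counted next. Of 16 listed partners 15 were tested, 1 rose, 7 fell and 7 did not pass (median −0.33, against 0.00 for all genes). The share called was 53.3%, beside 40.2% of all genes tested (20.0% higher and 20.2% lower), and this difference was not tested. Without SUPT4H1 replicate 6, 2 rose and 8 fell. The heparan sulfate proteoglycan glypican 2 (GPC2), a midkine partner in developing neurons, fell most, from 20.9 ± 3.08 to 8.37 ± 2.11 CPM (SD, n = 6 each, log2 −1.30). RPSA, the laminin receptor and ribosomal protein (−0.80), and SDC2 (−0.72) fell as well, and the laminin-binding integrin gene ITGA6 (0.61) rose. RPSA has many near-identical pseudogenes, and its value is uncertain to that extent. The ITGB1 subunit ran from 8.01 to 13.3 CPM with scrambled siRNA and from 10.1 to 46.9 CPM with SUPT4H1 siRNA (log2 0.91, edgeR adjusted p = 0.060), and was named after its values were seen.

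Enzymes that build and edit the sugar chains on which both ligands depend were also counted. For heparan sulfate, 28 of 35 genes were tested, 7 rose, 3 fell and 18 did not pass (median 0.16), and the 35.7% called were near the 40.2% over all genes. Without SUPT4H1 replicate 6, 10 rose and 4 fell. NDST1, which starts sulfation of the chain, rose from 60.8 ± 4.36 to 105 ± 6.76 CPM (SD, n = 6 each, log2 0.79). PAPSS1 (0.76) and PAPSS2 (0.75), which make the sulfate donor, rose too, and the epimerase gene GLCE (−0.62) fell. For chondroitin sulfate, the chain of PTPRZ1, 15 of 16 genes were tested, 5 rose, 0 fell and 10 did not pass (median 0.19, 33.3% called). They included the polymerizing enzymes CHSY1 (0.23) and CHPF2 (0.36), the sulfotransferase CHST12 (0.35) and the epimerase-like gene DSEL (0.70). The CHSY1 call was lost without scrambled replicate 4 (adjusted p = 0.056), without the low-count filter (0.080), with RNA integrity as a covariate (0.065) and with the replicate block (0.067).

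Among 14 tested of 21 other proteoglycan core genes, 3 rose, 3 fell and 8 did not pass (median 0.28, 42.9% called), and without SUPT4H1 replicate 6 5 rose and 3 fell. In relative abundance 40.2% of all genes tested were called, 20.0% as higher and 20.2% as lower. Differences of the list shares from it were not tested. VCAN, which encodes the chondroitin sulfate proteoglycan versican, rose from 89.3 ± 3.39 to 170 ± 11.5 CPM (SD, n = 6 each, log2 0.93). The TGF-β co-receptor TGFBR3 (−0.47) fell, as did SDC2 and GPC2, which are on this list as well. Of 20 genes for processing and cytoplasmic partners of syndecans and LRP1, 17 were tested, 8 rose, 2 fell and 7 did not pass (median 0.27, 58.8% called). SDCBP, the gene of the syndecan adaptor syntenin, rose from 50.4 ± 10.9 to 95.3 ± 10.1 CPM (SD, n = 6 each, log2 0.92). The sheddase ADAM17 (0.64), the actin crosslinker ACTN4 (0.68) and the LRP1 partner APP (0.47) rose. Among the 13 LDL receptor family genes other than LRP1, all tested, 4 rose, 4 fell and 5 did not pass (median 0.21, 61.5% called), with LRP4 at 0.95, LRP10 at 0.54, VLDLR at −0.56 and LRP2 at −0.50. Without SUPT4H1 replicate 6, 3 genes of this family rose and 6 fell, and 9 of the processing genes rose and 2 fell. On the spike-in scale, where 59.0% of all genes tested fell and 0.311% rose, 0 members of these lists rose. There 9 of the 15 binding partners (60.0%), 13 of the 28 heparan sulfate genes (46.4%), 5 of the 15 chondroitin sulfate genes (33.3%), 5 of the 14 other cores (35.7%), 5 of the 17 processing genes (29.4%) and 6 of the 13 LDL receptor family genes (46.2%) fell.

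**Figure D5:**
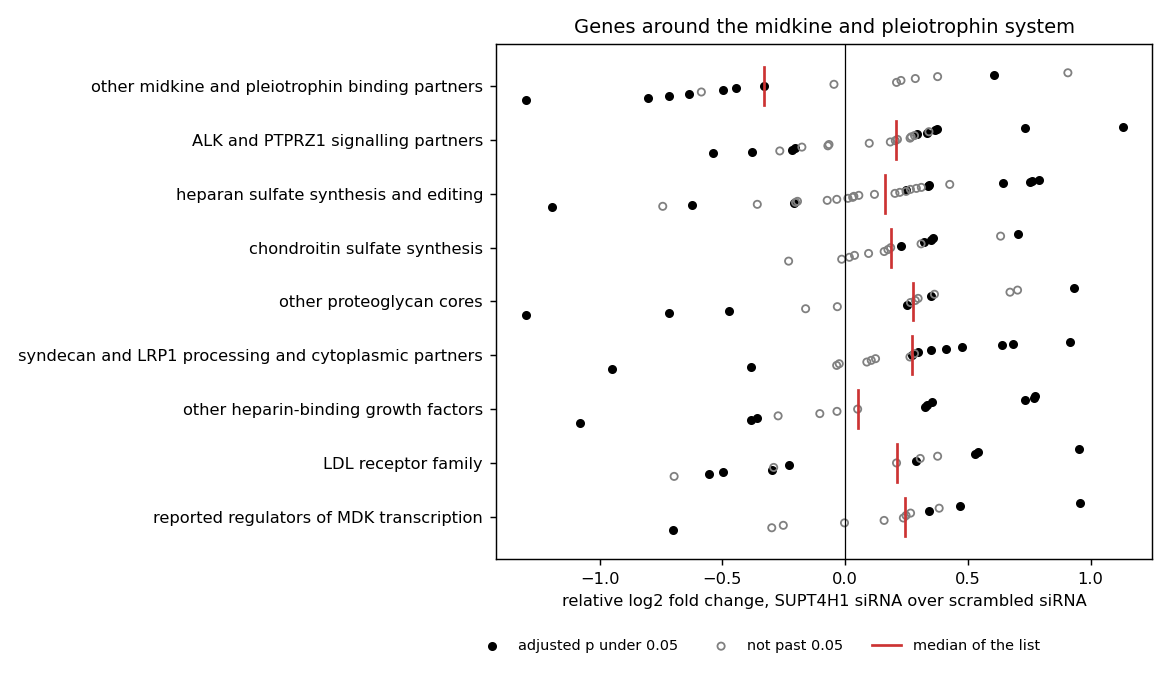
Relative log2 fold change of each tested gene of 9 lists around the midkine and pleiotrophin system (x axis), with filled points for genes past an adjusted p of 0.05, open points for the others and a red line at the median of each list. Medians run from −0.33 for the binding partners to 0.28 for the other proteoglycan cores.

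Downstream of the receptors, 22 of 22 signalling genes were tested, 6 rose, 4 fell and 12 did not pass (median 0.21, 45.5% called beside 40.2% of all genes). CTNNB1, the gene of the PTPRZ1 substrate β-catenin, rose from 136 ± 11.3 to 298 ± 28.8 CPM (SD, n = 6 each, log2 1.13). STAT3 (0.73) rose and the ERK1 gene MAPK3 (−0.54) fell. In the fit without SUPT4H1 replicate 6, 7 of the signalling genes rose and 5 fell. Of 12 tested among 13 genes reported to regulate MDK transcription, 3 rose, 1 fell and 8 did not pass (median 0.24, 33.3% called). HIF1A, the hypoxia factor, rose from 22.6 ± 1.99 to 44.0 ± 3.36 CPM (SD, n = 6 each, log2 0.96). SP1 (0.47) and the NF-κB subunit gene RELA (0.34) rose and NKX2-1 (−0.70) fell. Of 20 other heparin-binding growth factor genes 13 were tested, 6 rose, 3 fell and 4 did not pass (median 0.05, 69.2% called). VEGFA fell from 27.8 ± 2.39 to 13.2 ± 2.15 CPM (SD, n = 6 each, log2 −1.08) and FGF9 fell by 0.36 on the log2 scale, while PGF (0.78) and CCN2 (0.73) rose. Without SUPT4H1 replicate 6 only 2 of these genes rose and 3 fell. None of the list members named here reached the log2 fold change of MDK, the gene that was chosen by that value. The rises and falls above are in relative abundance. On the spike-in scale 0 members of these lists rose, beside 0.311% of all genes tested. There 9 of the 22 signalling genes (40.9%), 3 of the 12 MDK regulators (25%) and 7 of the 13 growth factor genes (53.8%) fell. Over all genes tested 59.0% fell.

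Neighbouring genes on chromosome 11 differed much less than MDK. Since MDK was chosen by its large fold change, this contrast is a description and no separate result. DGKZ, a diacylglycerol kinase gene that ends 201 bases before MDK on the same strand, rose from 21.99 ± 4.08 to 29.9 ± 5.02 CPM (SD, n = 6 each, log2 0.44, edgeR adjusted p = 0.0097), with overlap between the groups. AMBRA1, an autophagy gene that starts its annotated span 12576 bases beyond MDK on the opposite strand, rose from 32.8 ± 2.95 to 45.8 ± 2.58 CPM without overlap (log2 0.48, edgeR adjusted p = 0.00010). Of the other genes within 50 kb, CHRM4 and MIR4688 had 0 reads in all 12 libraries. The pseudogene AC024293.1 inside AMBRA1 was at −0.44 (edgeR adjusted p = 0.15), past the threshold without SUPT4H1 replicate 6 (adjusted p = 0.012). On the spike-in scale DGKZ was at −0.40 (edgeR adjusted p = 0.26) and AMBRA1 at −0.32 (0.36), so neither was called there. AC024293.1 fell on that scale (−1.25, edgeR adjusted p = 0.00079). The median of all genes tested was −0.82.

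By likeness of pattern, the genes closest to MDK over the 12 libraries were the small heat shock protein gene HSPB1 (Pearson r = 0.99), the phosphatase gene PTP4A1 (0.98) and the zinc finger gene ZKSCAN1 (0.98), out of 10666 genes with a mean of at least 5 CPM. These values were computed on log2 CPM, carry the difference between the groups and share the libraries' depth, so they are a description with no p. SDC1 ranked 51st by this measure (0.96). After the mean of each group was subtracted, which leaves only the differences between transfections of a group, the closest were the damage-recognition gene DDB2 (0.97), ATP5S (0.94) and MACROD1 (0.92). Between the groups these last 3 had log2 fold changes of −0.11, −0.11 and 0.01. The receptors were less alike, with SDC1 at 0.62, LRP1 at 0.38, SDC4 at 0.33 and SDC3 at 0.29.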

How the data were processed

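QuantSeq 3′ libraries were sequenced, and the authors deposited 1 table of raw counts per gene. The submitters' processing notes name FastQC 0.11.5, STAR, MultiQC and R 3.4.3 with GRCh38.p10. For the counting tool, the annotation and any strand setting, nothing is given in the sources used here. The edgeR package (4.0.16, robust quasi-likelihood test, TMM over endogenous genes, R 4.3.3) was run on these counts over all 12 libraries without covariates, after filterByExpr (13811 genes), with Benjamini-Hochberg adjustment and a threshold of 0.05. For spike-in scaling, library sizes were the summed reads of 23 ERCC subgroup B standards, whose assignment was written from general knowledge. Relative to B, the median log2 differences of subgroups A, C and D were −2.03, 0.59 and 0.99 (nominal −2, 0.58 and 1). Positions and 3′ untranslated regions are from GENCODE 29 (GRCh38). Genes and lists were chosen with earlier results of these data known. Named genes are SUPT4H1, the 8 genes, up to 4 called genes per list by adjusted p, MDK's neighbours within 50 kb and the 3 genes most like MDK by each of 2 measures, on log2(CPM + 0.5). Not every gene that this rule names is reported here. Alternatives were DESeq2 1.42.0, limma-voom (limma 3.58.1), other scalings and filters, RNA integrity, the replicate block and leaving out each library. The test was checked on simulated counts. Chi-square per degree of freedom between libraries of a group was 4.48 to 35.0 in 30 pairs, so none was taken as deposited more than once.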

Additional observations from a re-analysis of the deposited data

Results flagged for a closer look

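SUPT4H1 siRNA replicate 5 stood apart from its group on the spike-in scale, with levels of 619% of the scrambled mean for MDK, 193% for SDC1 and 93.9% for SDC4. In each case its gap to the nearest library of the group, divided by the range, exceeded Dixon's 95% critical value for 6 values. PTPRZ1 was at 2.19 CPM in SUPT4H1 siRNA replicate 6, from 15 reads, apart from the other 5 libraries in the same way. ALK was at 0.107 CPM in SUPT4H1 siRNA replicate 5, which is its single read. Of 27 sets of 6 values examined 5 held such a library, where chance gives about 1.35. The ALK set holds 1 read and otherwise 0, so its flag follows from that and the chance figure does not apply to it. Sets of 1 library share its scaling and are not independent.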

How the results depend on the processing

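In relative abundance between 4654 and 5851 genes were called under the alternatives that kept all libraries, against 5557, and 5079 to 5907 when each library was left out in turn. On the spike-in scale the count was 8195. It was 12888 with RNA integrity as a covariate and 2295 with subgroup C standards, and ran from 5697 (without scrambled replicate 4) to 12355 (without SUPT4H1 replicate 5) when each library was left out. The cause was not tested. MDK kept a relative log2 fold change of 1.92 to 2.13 without each library. Its spike-in-scaled value was 0.70 with RNA integrity as a covariate and 0.82 without SUPT4H1 replicate 5. RNA integrity was 9.6 in that library, 9.8 in SUPT4H1 replicate 6 and 9.9 or 10 in the others. These 2 settings are therefore not independent. The PTN call was lost without a low-count filter (adjusted p = 0.062), with limma-voom (0.053), with RNA integrity (0.11) and with the replicate block (0.067). That of SDC3 was lost with RNA integrity (0.058) and the block (0.056). SDC1 and SDC3 fell on the spike-in scale with RNA integrity (−0.59 and −0.75), as did SDC3 without SUPT4H1 replicate 5 (−0.57). SDC4 was not called there with subgroup C (−0.81, adjusted p = 0.072). Replicate numbers did not pair the libraries: correlations of same-numbered libraries ran from −0.32 to 0.07 and 0 of 6 correlated best with its own number. With the replicate block 4837 genes were called in relative abundance and 9371 on the spike-in scale. Depth limits PTN, PTPRZ1 and ALK.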
